A study of Oryza sativa Indica Group with 4 samples.

Results

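Cytokinin oxidases (CKX) are the enzymes that break cytokinin down, and their genes were examined in young rice panicles of lines with high or low grain number. The members were the 10 named genes CKX1, CKX2, CKX3, CKX4, CKX5, CKX7, CKX8, CKX9, CKX10 and CKX11, matched by symbol or synonym to the platform's pairing of probe sets with genes. Of these, 5 genes had a paired probe set and could be read: CKX1 (LOC4325668), CKX3 (LOC4348932), CKX4 (LOC4326515), CKX5 (LOC4327887) and CKX11 (LOC4345764). CKX11 had 2 probe sets and the others 1 each, so 5 of 17905 genes with a probe set of their own, and 6 probe sets, were examined, of 57194 on the array once controls are set aside. CKX2 (LOC4327333) and CKX9 (LOC4338605) were in the gene table but had no paired probe set, and CKX7, CKX8 and CKX10 matched no gene name there, so those 5 were not analysed here. CKX2, also known as Gn1a, is the family member best known for its link to grain number in rice, and it is among those not read.

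RNA came from panicle primordia of Oryza sativa Indica Group, at the stage the submitters number 0, and was hybridised to an Affymetrix rice array. The high grain number group held 2 arrays and the low grain number group held 2 arrays. Every array carried a bulk of 10 recombinant inbred lines, each bred to be nearly uniform from a cross, here of 2 cultivars that the labels do not name. No treatment or engineered allele is given for either group, the values of single lines are not seen in a bulk, and the labels do not say whether the 2 replications share lines or plants.

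Cytokinin is a plant hormone that keeps meristem cells dividing, and in the panicle it supports the meristems that become branches and spikelets. It is released in its active form by LOG enzymes, bound by histidine kinase receptors, and its signal passes through phosphotransfer proteins to response regulators. Type B response regulators switch target genes on, type A response regulators are themselves targets and dampen the signal, and CKX enzymes remove the hormone irreversibly. In rice, reduced CKX2 activity gives more grains per panicle.

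The arrays as deposited had trimmed mean signals between 36.7 and 55.6, the brightest being low grain number replicate 2, so intensities below are quantile normalised unless they are said to be as deposited. Of 8 panicle meristem markers, 7 passed the filter on dim probe sets. That filter kept 34316 of 57194 probe sets, so passing it does not by itself show that a gene is present. OSH1 (LOC4333973), a meristem homeobox gene, had 2 probe sets, both at the 97.7th percentile of brightness. One read 527 and 606 in the high bulks, against 763 and 650 in the low bulks. The other went the opposite way, with 775 and 618 in the high bulks, against 613 and 516 in the low bulks. Of the 7 tested meristem markers, 3 had a positive and 4 a negative log2 difference, high minus low. At a limma adjusted p under 0.05, 0 of them passed. RFL (LOC4336857) was at 0.51 ± 0.32, MADS34 (LOC4334141) at 0.44 ± 0.28 and LAX1 (LOC4327431) at -0.12 ± 0.20 (SE). Secondary wall markers, which stand for stem tissue, differed between the groups. Their summed intensity over 6 genes was 112 and 163 in the high bulks, against 477 and 582 in the low bulks. At a limma adjusted p under 0.05, 4 of the 6 were lower in the high bulks (CESA7, CESA4, BC1 and LAC10) and 0 higher. Over all tested probe sets 0.568% passed in either direction. With no filter on dim probe sets 0 of the 6 passed, and 0 of all 57194 probe sets did. The other CESA4 probe set overlapped between the groups, at a log2 difference of -0.016. The ratio of 3' to 5' signal, a sign of RNA quality, was also lower in the high bulks for GAPDH (51.9 and 34.4, against 85.2 and 67.6 in the low bulks) and for actin (27.5 and 24.8, against 39.7 and 36.0). The same ratio overlapped between the groups for cyclophilin (2.49 and 4.34, against 4.05 and 5.41) and for ubiquitin (2.29 and 2.14, against 3.23 and 2.23). What part either difference has in the values below was not tested. In bulk tissue, fewer cells of a type and less RNA per cell cannot be told apart.

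The comparison asked whether the expression of CKX genes in young panicles differs with grain number. No CKX gene passed the test. CKX3 had the largest difference on the log2(intensity + 16) scale used for testing, with a signal 2.03 times as bright in the high bulks, and CKX4 and 1 probe set of CKX11 also had both high arrays above both low arrays, but all of these signals were dim. CKX5 and the brighter CKX11 probe set overlapped between the groups, and CKX1 was near 0 on 3 of the 4 arrays. Of 6 CKX probe sets, 5 passed the filter, the dimmer one of CKX11 only through its high arrays. Of those 5, 0 passed the test (limma adjusted p under 0.05, two-sided, corrected by Benjamini-Hochberg over 34316 probe sets). At an unadjusted limma p under 0.05 there was 1 of the 5, against 8.24% of all tested probe sets. Over all tested probe sets 0.568% passed, 53 higher and 142 lower in the high bulks, and under the deposited scaling 37 were higher and 233 lower.

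CKX3 was the CKX probe set with an unadjusted p under 0.05. Its intensity was 20.0 and 19.0 in the high bulks, against 7.70 and 11.5 in the low bulks. The lower of the high arrays lies above the higher of the low arrays, and the high pair is the tighter pair. The group means were 19.5 ± 0.74 in the high bulks, against 9.61 ± 2.70 in the low bulks (SD, n = 2 each), a ratio of 2.03. On the log2(intensity + 16) scale, which pulls dim probe sets towards no change, the high minus low difference was 0.47 ± 0.20 (SE, 95% interval 0.041 to 0.91). This difference had an unadjusted p of 0.0347 and a limma adjusted p of 0.561, so it did not pass. As deposited, the values were 18.3 and 18.5 in the high bulks, against 6.6 and 14.0 in the low bulks, again without overlap. With log2(value + 1) the difference of CKX3 was 0.97 and did not pass either. It stayed positive under all 13 alternatives, from 0.18 with log2(value + 64) upwards. For groups that do not overlap, only the deposited scaling and median centring could change the sign, and both gave 0.40. CKX3 passed in none of the 12 alternatives that gave a p.

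**Figure D1:**
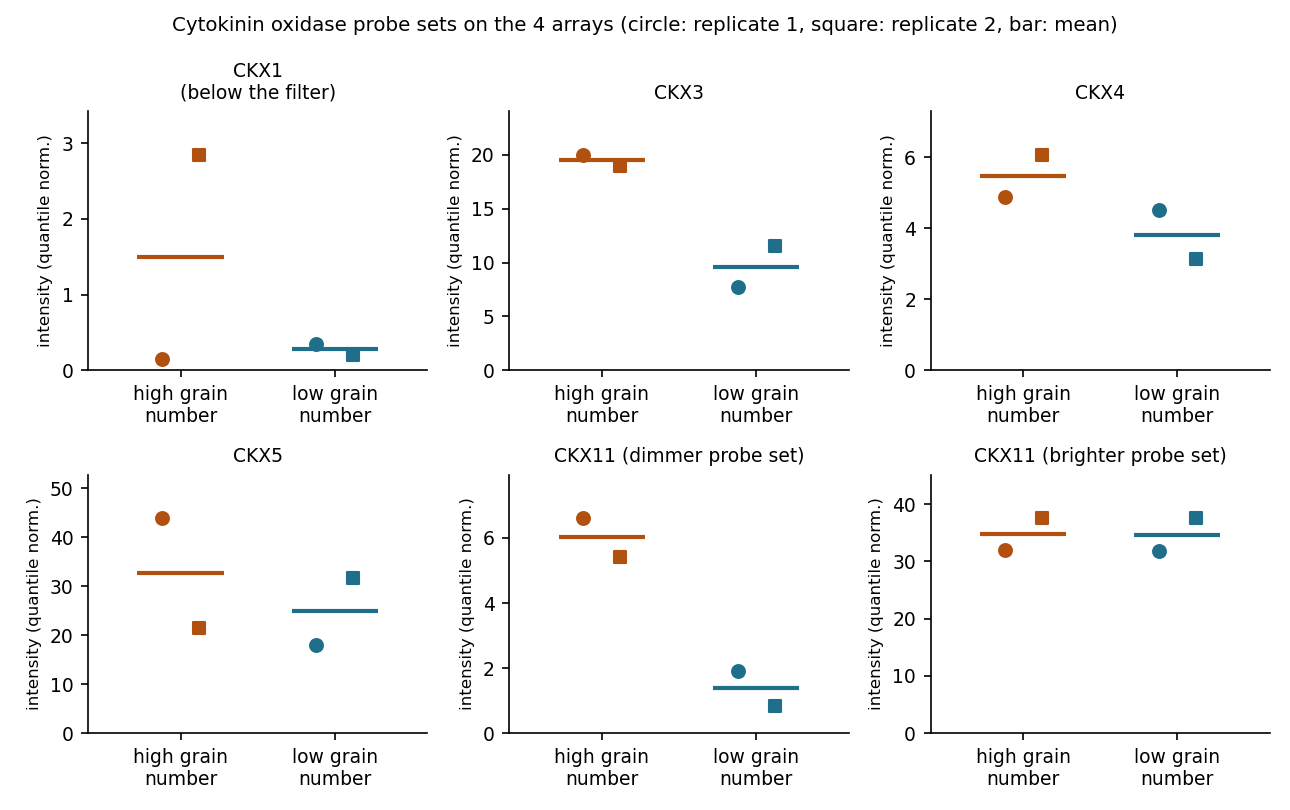
Quantile normalised intensity (linear axis from 0, a separate scale per panel) of the 6 CKX probe sets in the high and low grain number bulks. Circles are replicate 1, squares replicate 2 and bars the mean of 2 arrays. CKX3, CKX4 and the dimmer CKX11 probe set have both high arrays above both low arrays, and the other 3 panels overlap.

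CKX4, an enzyme known in rice for its part in crown root growth, was dim on every array. It read 4.88 and 6.08 in the high bulks, against 4.50 and 3.13 in the low bulks. The groups do not overlap, but the gap between high replicate 1 and low replicate 1 is smaller than the gap between the 2 arrays of either group. Its difference was 0.12 ± 0.18 on the log2(intensity + 16) scale (SE, 95% interval -0.28 to 0.51, limma adjusted p = 0.937).

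CKX5 had a spread within each group larger than the difference between them. Its intensity was 44.0 and 21.5 in the high bulks, against 18.1 and 31.8 in the low bulks. High replicate 1 is the brightest array and low replicate 1 the dimmest, with the replicate 2 arrays in between and in the opposite order. The difference was 0.23 ± 0.27 (SE, log2 scale, 95% interval -0.36 to 0.82, limma adjusted p = 0.906). Leaving out an array changed its sign: it was -0.11 without high grain number replicate 1 and 0.57 without replicate 2 of that group. On the low side it was -0.011 without replicate 1 and 0.48 without replicate 2.

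CKX11, which is known in rice for effects on leaf senescence and grain number, was read by 2 probe sets that disagreed. The brighter one stood for the gene and read 32.0 and 37.7 in the high bulks, against 31.8 and 37.5 in the low bulks. On it the replicate 2 array is the brighter in each group, and the groups match almost value for value. Its difference was 0.0054 ± 0.21 (SE, log2 scale, 95% interval -0.45 to 0.46, limma adjusted p = 0.999). Under the deposited scaling it was -0.14, where the median of all tested probe sets was -0.075, against 0.012 after quantile normalisation.

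The dimmer CKX11 probe set read 6.63 and 5.43 in the high bulks, against 1.93 and 0.85 in the low bulks. Both high arrays are above both low arrays, at signals well under the 16 that was added before taking logs. On the log2 scale the high arrays (4.50 and 4.42) lay above the filter value of 4.27 and the low arrays (4.16 and 4.07) below it. The probe set therefore entered the test only through its high arrays. It was not tested when either high array was left out or with the filter at percentile 60. Its difference was 0.34 ± 0.18 (SE, log2 scale, 95% interval -0.05 to 0.73, limma adjusted p = 0.689). The deposited scaling gave 0.34 as well. The ratio of its group means was 4.34, above the 2.03 of CKX3, and with log2(value + 1) its difference was 1.59. With no filter its unadjusted p was 0.0330, against 0.0741 for CKX3, and neither passed (limma adjusted p = 0.711 and 0.795). In that fit 0 of all 57194 probe sets passed. The files do not say which part of the transcript each probe set reads, so the 2 readings of CKX11 stand side by side.

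CKX1 was the only CKX probe set below the filter, at the 9.83rd percentile of brightness among all probe sets. It read 0.15 and 2.85 in the high bulks, against 0.35 and 0.20 in the low bulks. Only high replicate 2 stands above the rest, and the level of this gene cannot be judged from such signals. With no filter on dim probe sets its difference was 0.10 ± 0.081 (SE, log2 scale, limma adjusted p = 0.842), and it was -0.011 without high grain number replicate 2.

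**Figure D2:**
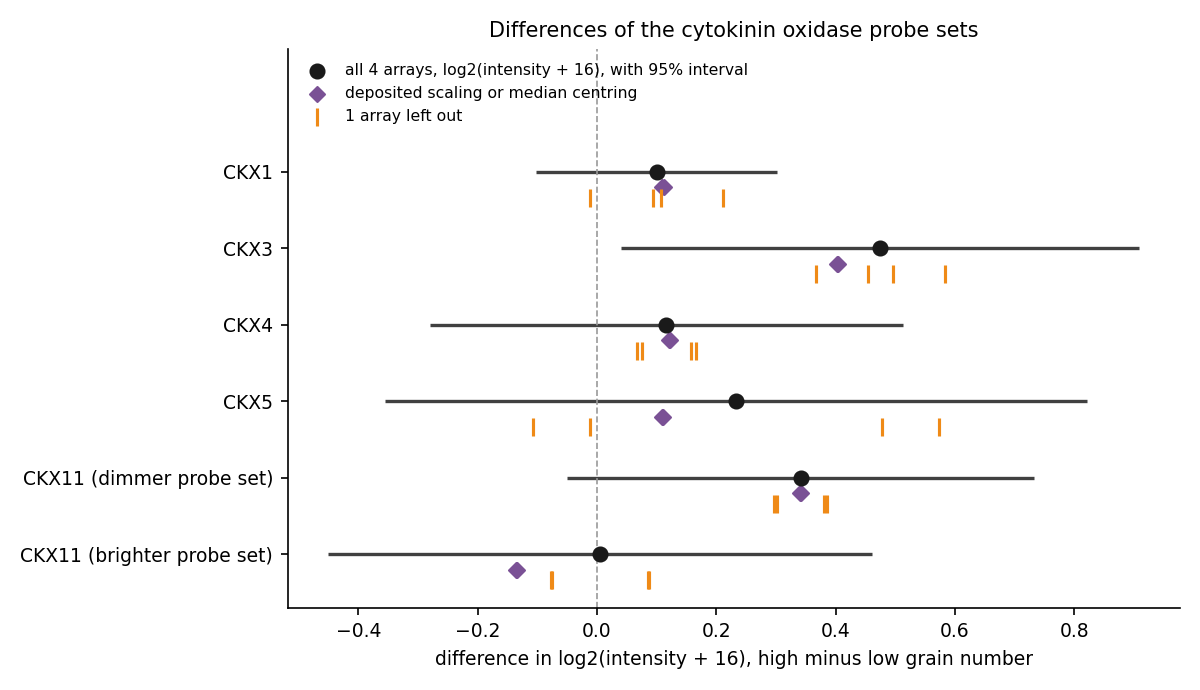
High minus low grain number difference in log2(intensity + 16) for each CKX probe set, with the 95% interval from limma as a line (for CKX1, from the fit with no filter), the 2 other scalings as diamonds and the 4 fits with 1 array left out as ticks. The interval of CKX3 (0.041 to 0.91) lies above 0 before adjustment, and CKX1, CKX5 and the brighter CKX11 probe set have ticks on both sides of 0.

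Across the family, the sign leaned one way while the sizes stayed small on the log2 scale used for testing. All 6 probe sets had a positive difference, against 51.5% of all 57194 probe sets, and the median over the 5 genes was 0.12 on the log2 scale, against 0.0045 over all probe sets. The brighter CKX11 probe set was positive only by 0.0054, and both other scalings, which moved the median of all tested probe sets to -0.075 and -0.072, gave a negative value. CKX11 counts 2 times among the 6. CKX1 was at -0.011 without high grain number replicate 2. CKX5 was at -0.11 without high grain number replicate 1 and at -0.011 without low grain number replicate 1. Both high arrays were above both low arrays in 3 of the 6 probe sets, against 18.2% of all probe sets. On the deposited intensities the count was also 3, against 11.9% of all probe sets. The smallest absolute difference among the 195 probe sets that passed was 0.89, and no CKX probe set reached that size on the same scale. The upper interval bounds were 0.91 for CKX3, 0.82 for CKX5 and 0.51 for CKX4. They were 0.73 for the dimmer CKX11 probe set and 0.46 for the brighter one. Of the tested CKX probe sets only the interval of CKX3 reached that smallest called size. For CKX1, CKX4 and the dimmer CKX11 probe set this cannot decide whether the change was small. The constant added before taking logs holds down the differences of signals so dim. With log2(value + 1) the differences were 1.59 for the dimmer CKX11 probe set, 0.97 for CKX3 and 0.73 for CKX1. They were 0.44 for CKX4, 0.35 for CKX5 and 0.0078 for the brighter CKX11 probe set, and none of the tested ones passed.

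Among 19329 other tested probe sets with 1 gene, those closest to CKX3 over the 4 arrays were LOC4340826 (HRD1), LOC4344801 and LOC4332808. Likeness was the root mean square distance between log2 values centred on each probe set's mean, and it was 0.014, 0.021 and 0.021. LOC4340826 read 466 and 449 in the high bulks, against 299 and 359 in the low bulks. With 4 arrays such likeness is common: 54 probe sets lay within 0.05 of CKX3.

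The other cytokinin genes were taken from lists of synthesis, activation, glucosylation, receptors, phosphotransfer proteins, response regulators and transport. Of 70 names, 36 matched a gene, 25 genes had a probe set and 23 were tested. None of the IPT synthesis, cZOGT glucosylation or transport names matched, so those steps were not analysed here. Of the 23 tested genes, 0 passed (limma, 0 at an unadjusted p under 0.05, against 8.24% of all tested probe sets). In all, 17 had a positive and 6 a negative difference, and the median was 0.18 on the log2 scale, with a range from -0.42 to 0.41. Over all tested probe sets the median was 0.012 and 52.1% were positive. With the deposited scaling the median of the 23 was 0.027, with 12 positive and 11 negative, where all tested probe sets had a median of -0.075 and 37.9% positive. With median centring it was 0.030, beside -0.072 over all tested probe sets.

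In hormone activation, 0 of 8 tested LOG genes passed, with 6 positive and 2 negative differences. LOGL9 (LOC4347769) had 0.38 ± 0.22 and LOGL1 (LOC4327684) 0.25 ± 0.21 (SE, log2 scale). LOGL7 (LOC4339472) was lowest of the list, with 11.5 and 4.25 in the high bulks, against 13.4 and 18.1 in the low bulks. Its difference was -0.42 ± 0.22 (limma adjusted p = 0.675), while its other, dimmer probe set overlapped between the groups, at 0.0035. LOG itself (LOC4324445), which activates cytokinin in the shoot meristem, had 0.03 ± 0.22.

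The 3 tested receptor genes, HK3, HK4 and HK5, had differences between 0.15 and 0.23, and 0 passed. HK3 (LOC9271913) read 168 and 177 in the high bulks, against 150 and 139 in the low bulks, without overlap. Of the 2 phosphotransfer genes, HP1 (LOC4347886) had 0.26 ± 0.17 and HP2 (LOC4346300) -0.21 ± 0.21 (SE, log2 scale).

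Of the 4 tested type B response regulators, which activate cytokinin targets, 0 passed, and RR23 (LOC4331008) stood highest at 0.26 ± 0.20 with RR21 (LOC4332111) lowest at -0.13 ± 0.26 (SE, log2 scale). Of the 6 tested type A response regulators, which cytokinin induces, 0 passed and 5 were positive, with a median of 0.22. RR1 (LOC4335937) read 93.1 and 93.5 in the high bulks, against 65.1 and 67.2 in the low bulks, a difference of 0.41 ± 0.20 (limma adjusted p = 0.657). RR4 (LOC4325747) had 0.33 ± 0.20, and RR5 (LOC4336439) was the negative one at -0.13 ± 0.19.

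The count of these genes whose groups did not overlap changed with the scaling. After quantile normalisation 11 of the 23 had both high arrays above both low arrays, 5 of them type A response regulators, where 19.6% of tested probe sets did. On the deposited intensities 0 of the 23 did, against 9.65% of tested probe sets. The type A median was 0.056 under the deposited scaling, where the median of all tested probe sets was -0.075. Of the regulators listed beside the pathway, NAC2 (LOC4336052) was dim and had 0.19 ± 0.22, and OSH1 had -0.31 ± 0.18 (SE, log2 scale). The 2 OSH1 probe sets had opposite signs, the other one being at 0.29.

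**Figure D3:**
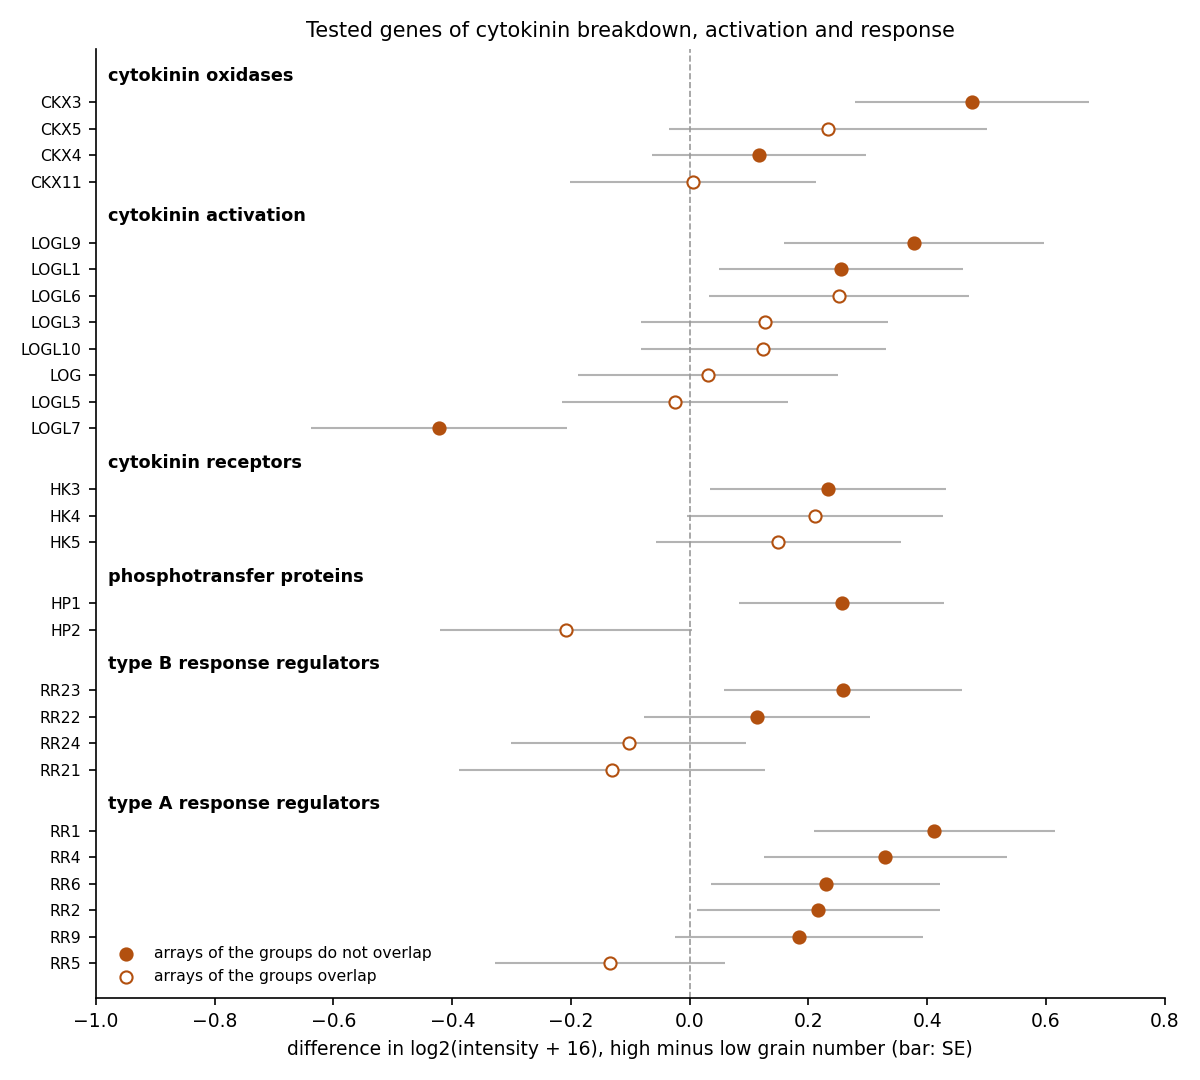
High minus low grain number difference in log2(intensity + 16) for the 4 tested CKX genes and the 23 tested genes of cytokinin activation, reception and response, with SE bars. Filled points are genes whose 2 high and 2 low arrays do not overlap, and every tested gene lies between -0.42 and 0.47.

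Bulks of selected lines can share a stretch of chromosome, so the 5 tested genes on each side of the 7 CKX genes in the gene table were examined, in the table's gene order. This was chosen after earlier results of these data were known. Of 70 neighbours, 1 passed, higher in the high bulks (1.43%, against 0.568% of all tested probe sets), and 12 were at an unadjusted p under 0.05 (17.1%, against 8.24%).

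The neighbour that passed lay near CKX1. LOC4326771, 10 genes away, read 66.8 and 83.2 in the high bulks, against 21.9 and 17.1 in the low bulks, without overlap. Its difference was 1.36 ± 0.21 (SE, log2 scale, limma adjusted p = 0.0181). It did not pass with no filter (limma adjusted p = 0.429), where 0 of all 57194 probe sets passed. Nor did it pass without high grain number replicate 2, where its difference was 1.23. It did not pass either when a low array was left out, with differences of 1.45 without replicate 1 and 1.26 without replicate 2. LOC4325667, the tested gene next to CKX1 on the other side, had 0.84 ± 0.21 and did not pass (limma adjusted p = 0.166). CKX1 had 4 of its 10 neighbours at an unadjusted p under 0.05, 2 of them negative, so its surroundings did not move one way.

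CKX2 has no probe set of its own, but its neighbours were read. Of the 10, 8 were positive, where 52.1% of all tested probe sets were. Their median log2 difference was 0.17, against 0.012 over all tested probe sets. None passed (limma, 2 of the 10 at an unadjusted p under 0.05, against 8.24% of all tested probe sets). LOC4327335, the gene next to CKX2, read 92.9 and 86.2 in the high bulks, against 57.7 and 58.2 in the low bulks, a difference of 0.51 ± 0.20 (limma adjusted p = 0.531). LOC4327323, 14 genes away, had 0.86 ± 0.19 (SE, log2 scale) and did not pass. Under the deposited scaling LOC4327335 was at 0.33 and LOC4327323 at 0.69, where the median of all tested probe sets was -0.075. CKX1 and CKX2 lie on the same chromosome with 64 genes of the table between them. Of these, 33 were tested, 1 passed (LOC4326771; 3.03%, against 0.568% of all tested probe sets) and 9 were at an unadjusted p under 0.05 (27.3%, against 8.24%). Of the 33, 15 were positive and 18 negative.

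Around the other CKX genes 0 neighbours passed (limma, 6 of 50 at an unadjusted p under 0.05, against 8.24% of all tested probe sets). CKX3 had 0 of its 10 at an unadjusted p under 0.05, with a range from -0.34 to 0.21, so its own difference of 0.47 exceeded that of every neighbour examined. CKX9, which has no probe set, had 7 of 10 positive and a median of 0.21, against 52.1% and 0.012 over all tested probe sets. Near CKX11, LOC4345763 (GER5, a germin-like protein), 3 genes away, had 1.05 ± 0.21 (SE, log2 scale, limma adjusted p = 0.0646) and passed without high grain number replicate 2 (limma adjusted p = 0.0447), while the brighter CKX11 probe set was at 0.0054.

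**Figure D4:**
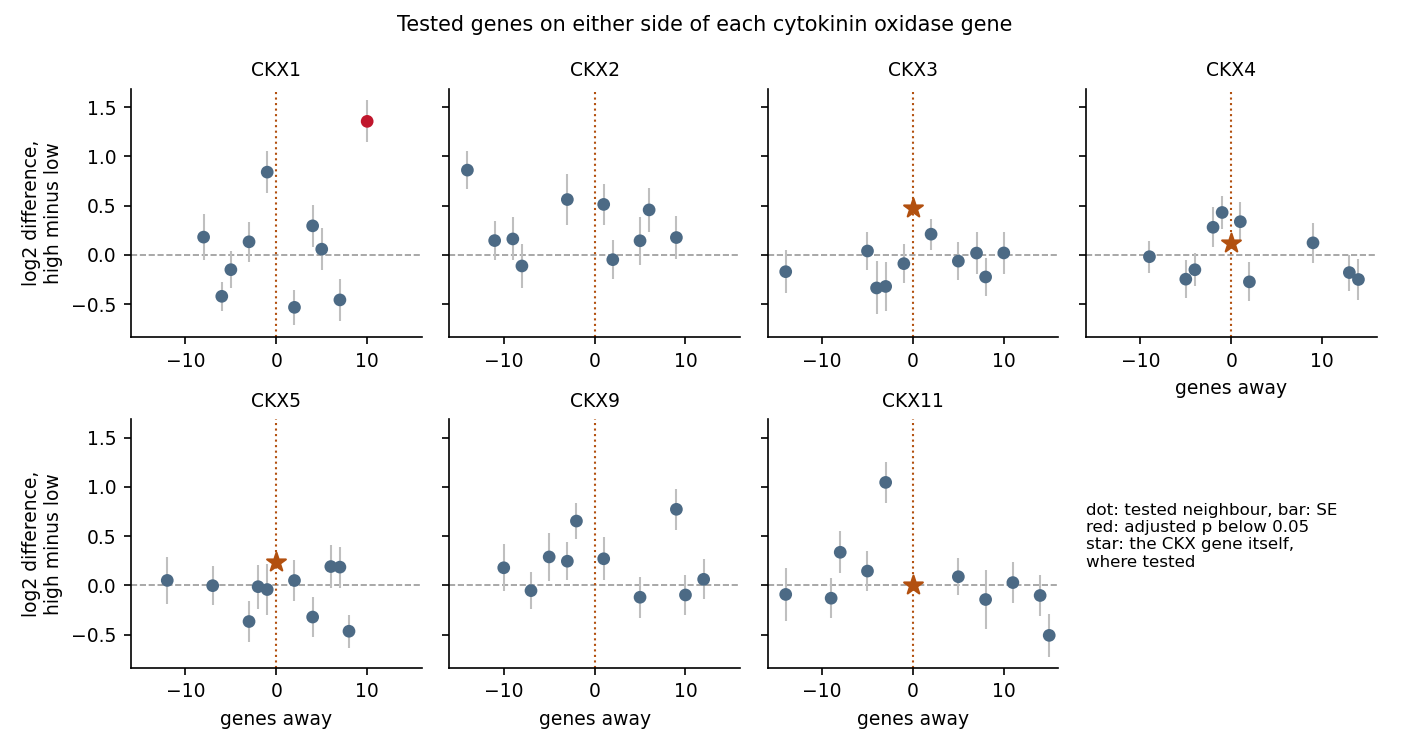
High minus low grain number difference in log2(intensity + 16), with SE bars, for the 5 tested genes on each side of the 7 CKX genes, against their distance from it in genes of the table. Stars mark the CKX gene itself where tested, and the 1 red point, LOC4326771 near CKX1 at 1.36, is the neighbour that passed.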

How the data were processed

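Biotin-labelled cRNA was hybridised to an Affymetrix rice array, per the labels' protocols. The table the authors deposited holds intensity values on a linear scale, 1 for each of 57381 probe sets on each array. The submitters' processing notes name GCOS 1.2, and the scaling target and any genome build are not given in the sources used here. Control probe sets, 187 in number, were dropped. Trimmed means (2% at each end) of the deposited intensities differed by a ratio of 1.52, so quantile normalisation was applied, followed by log2(intensity + 16). The dimmest probe sets, under percentile 40 of the mean log2 value, were filtered out, leaving 34316. The high minus low difference was fitted with limma 3.58.1 (R 4.3.3; lmFit and eBayes with trend; group alone in the model), p-values were adjusted by Benjamini-Hochberg over all kept probe sets, and the threshold was 0.05. Intervals are 95% and unadjusted. limma draws each probe set's spread from its own arrays and from probe sets of like brightness (prior degrees of freedom 9.05), so a p covers only the spread between these 4 arrays, which may be technical, and their number limits the precision. An exact permutation of 2 against 2 arrays cannot go below a two-sided p of 0.333, so none was run. The steps were tested on simulated data.

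A single gene was paired with 22436 probe sets, several genes with 95, and no gene with 34663. Names came from the platform annotation and NCBI's gene table (assembly ASM3414082v1), which served for names and gene order only. The probe set with the highest mean stood for a gene. Named genes are all CKX members, up to 2 genes of each list in each direction by smallest p, any list gene past the threshold, and the 3 probe sets most like the CKX probe set with the largest difference. Outside this rule, and with their values known, LOG, the other OSH1 probe set and the neighbours were added. The members and lists were chosen with earlier results of these data known. The secondary wall list holds a bHLH gene that shares the synonym BC1. Alternatives covered scaling, the constant added, the filter, the variance trend, a replicate block, leaving out each array and averaging a gene's probe sets.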

Additional observations from a re-analysis of the deposited data

How the results depend on the processing

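The finding that 0 CKX probe sets and 0 other cytokinin genes passed held under every alternative run (limma). The CKX probe sets tested ranged from 3, with the filter at percentile 60, to 6 with no filter. Differences of CKX3 and CKX4 kept their sign in all 13 alternatives each, but for groups that do not overlap most of these could not change it. Only the deposited scaling and median centring could, and both gave 0.40 for CKX3 and 0.12 for CKX4. The brighter CKX11 probe set was at -0.14 with the deposited scaling and -0.13 with median centring, and the dimmer one at 0.34 with both. With 1 array left out, the brighter CKX11 probe set ranged from -0.077 to 0.088 and the dimmer one from 0.30 to 0.39. CKX5 ranged from -0.11 to 0.57 and CKX1 from -0.011 to 0.21. The brighter CKX11 probe set was at -0.075 without high grain number replicate 2, and CKX5 at -0.011 without low grain number replicate 1. The family median of 0.12 was 0.44 with log2(value + 1), which gives dim probe sets more weight, 0.035 with log2(value + 64), and 0.076 to 0.16 with 1 array left out.

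Among all tested probe sets, 195 passed, of which 53 were higher and 142 lower. The count was 233 lower under the deposited scaling, 391 with 332 lower after median centring, 128 with 91 lower with log2(value + 1), and 0 with no filter (0 higher, 0 lower; 3849 at an unadjusted p under 0.05). It ranged from 58 to 249 with 1 array left out, 9 to 51 higher and 47 to 198 lower. With the replicate block it was 654 of the 34316 tested probe sets (189 higher, 465 lower), against 195 in the main fit. In that fit with the block, CKX3 had a limma adjusted p of 0.419. Beside those 654, 4 of the 70 neighbours passed: LOC4326771, LOC4345763, LOC4327323 (0.00998) and LOC4325667 (0.0366). Deviations of same-numbered arrays correlated at 0.111, and the labels do not say what a number shares. The causes were not tested. Among the neighbours, 0 passed with no filter or without either low array, and without high grain number replicate 2 the 1 that passed was LOC4345763. Where leaving out an array leaves 1 in a group, that array's spread is taken from the other group.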
